A study of Homo sapiens with 5 samples.

Results

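In LNCaP, a long-established human prostate cancer cell line that responds to androgen, 157 long noncoding RNA genes of the antisense and intergenic kinds were measured above a fixed level. They were chosen by symbol and by level among 14812 named genes measured on single-colour whole-transcript microarrays. A symbol had to begin with LINC, the prefix of intergenic noncoding RNAs, or to end in -AS1, -AS2 or -AS3 (antisense to a named gene), -IT1 (sense-intronic) or -OT1 (sense-overlapping). Its mean log2 intensity over all arrays had to exceed 5.5, and genes on chromosome 21 were left out. The symbol pattern matched 960 genes, of which 797 lay at or below that level and 6 of the 163 above it were on chromosome 21. The 157 members comprise 37 LINC genes, 110 with the ending -AS1, 5 with -AS2, 2 with -AS3, 1 with -IT1 and 2 with -OT1. The level alone chose the members among matching symbols, so their brightness is not a result. Just above the level were VAC14-AS1, LINC02894 and DLGAP1-AS1, with mean log2 intensities of 5.51 or less. Just below it were FAM83A-AS1, LINC00630 and WEE2-AS1, which round to 5.5.

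The arrays came from cells that carried a retroviral short hairpin RNA and were selected with puromycin. The first group, shRB, carried a hairpin against RB1 (3 arrays), and the second, shControl, a scrambled hairpin (2 arrays). Both groups had been irradiated with 10 Gy, and RNA was taken 24 h afterwards, so no unirradiated cells enter any comparison. Nothing in the labels says that arrays of 1 group are separate cultures, so p-values here reflect the spread among these arrays alone, and that spread may be technical. In such bulk RNA, fewer cells of a type and less RNA per cell cannot be told apart.

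Long noncoding RNAs are transcripts without a protein product. Antisense RNAs are transcribed from the strand opposite a gene and can share its start region or overlap its exons, and intergenic RNAs come from their own loci. Some act in the nucleus on chromatin, others bind proteins or microRNAs in the cytoplasm, and for most no role is known. RB, the product of RB1, holds E2F transcription factors in check, and E2F factors drive genes of the cell cycle.

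The medians of the deposited intensities were 27.53, 27.95 and 27.38 on the shRB arrays, against 26.65 and 28.06 on the shControl arrays. RB1 had log2 intensities of 5.16, 5.28 and 5.20 in shRB cells and 5.81 and 5.70 in shControl cells. The groups did not overlap, but the difference of -0.54 missed the threshold of limma's test (adjusted p = 0.0967). All 9 measured luminal prostate markers of 15 listed lay above a log2 of 5.5 (means 6.47 to 10.10). Their summed log2 levels were 74.66 to 75.19 in shRB cells and 74.92 to 75.27 in shControl cells. All 3 measured basal markers of 4 listed and both measured fibroblast markers of 6 listed lay below 5.5. Of 7 blood and endothelial markers listed, VWF (mean 5.87) and CD14 (4.42) were measured. VWF, a clotting factor of endothelial cells, had 5.94, 5.76 and 5.13 in shRB cells and 6.12 and 6.41 in shControl cells (difference -0.65, adjusted p = 0.164). The part of VWF-expressing cells in the results below was not tested.

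In irradiated cells, 6 noncoding genes were higher with the RB1 hairpin, and none was lower. They were the antisense genes FAM13A-AS1, GPC5-AS1, NAALADL2-AS3 and GAS5-AS1 and the intergenic genes LINC00623 and LINC00641, with log2 differences of 0.77 to 1.20, or 1.71-fold to 2.30-fold on the deposited scale. The test was limma's moderated test on log2 intensity with Benjamini-Hochberg adjustment over all 14812 genes and a threshold of 0.05. Over all genes 1.07% passed in either direction and 0.695% passed as higher. Among the 6424 genes above the same level 1.59% passed, 1.11% as higher and 0.483% as lower. Among the members the share was 3.82%, all higher. The deposited intensities behave as if a constant of 16 had been added, with a floor at a log2 of 4, so differences of dim genes are understated. With that constant taken off, the shRB levels of these 6 genes were 2.02 to 2.77 times the shControl levels, but none of the 6 then passed the test.

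The sequences at the starts of 5 of these 6 genes are given first, since they are the loci that the comparison singles out. Each is a RefSeq window on build GRCh38.p14 of 250 bases before the start and the first 50 transcribed bases, 5′ to 3′ on the gene's own strand. Capitals mark the transcribed bases. Where RefSeq lists several starts the first listed is shown. GPC5-AS1 lies on the minus strand (chr13:92721565-92721864), NAALADL2-AS3 on the minus strand (chr3:175115193-175115492), LINC00623 on the plus strand (chr1:120911988-120912287), LINC00641 on the minus strand (chr14:21206851-21207150) and FAM13A-AS1 on the plus strand (chr4:88709539-88709838).
FAM13A-AS1: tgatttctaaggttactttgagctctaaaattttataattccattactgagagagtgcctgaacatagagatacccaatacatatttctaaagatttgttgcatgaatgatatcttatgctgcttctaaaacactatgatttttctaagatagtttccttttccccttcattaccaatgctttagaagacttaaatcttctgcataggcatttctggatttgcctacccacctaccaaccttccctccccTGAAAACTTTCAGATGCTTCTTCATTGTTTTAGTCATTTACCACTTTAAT
GPC5-AS1: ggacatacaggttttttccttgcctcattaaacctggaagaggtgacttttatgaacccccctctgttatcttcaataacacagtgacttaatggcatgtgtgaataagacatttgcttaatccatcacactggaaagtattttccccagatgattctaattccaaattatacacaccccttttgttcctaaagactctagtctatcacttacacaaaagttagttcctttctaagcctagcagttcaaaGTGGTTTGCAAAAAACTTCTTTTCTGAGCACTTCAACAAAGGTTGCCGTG
NAALADL2-AS3: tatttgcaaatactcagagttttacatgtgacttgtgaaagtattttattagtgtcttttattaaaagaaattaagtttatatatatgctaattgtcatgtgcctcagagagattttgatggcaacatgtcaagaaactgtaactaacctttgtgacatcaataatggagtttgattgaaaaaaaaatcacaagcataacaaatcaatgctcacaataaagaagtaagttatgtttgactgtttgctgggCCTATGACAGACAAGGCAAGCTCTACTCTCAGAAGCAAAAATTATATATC
LINC00623: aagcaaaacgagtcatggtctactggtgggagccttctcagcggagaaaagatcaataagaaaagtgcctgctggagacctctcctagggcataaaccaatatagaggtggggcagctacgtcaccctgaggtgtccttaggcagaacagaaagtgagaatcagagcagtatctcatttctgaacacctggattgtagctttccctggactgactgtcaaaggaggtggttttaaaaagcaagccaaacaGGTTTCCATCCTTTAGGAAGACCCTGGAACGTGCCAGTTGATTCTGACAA
LINC00641: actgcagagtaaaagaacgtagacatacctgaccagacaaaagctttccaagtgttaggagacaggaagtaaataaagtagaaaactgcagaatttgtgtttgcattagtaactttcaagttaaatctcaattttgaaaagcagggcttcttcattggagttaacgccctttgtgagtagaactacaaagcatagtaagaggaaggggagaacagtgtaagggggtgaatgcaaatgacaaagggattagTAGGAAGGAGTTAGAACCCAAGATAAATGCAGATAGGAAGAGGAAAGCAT
All 5 windows are poor in CpG dinucleotides. FAM13A-AS1 and NAALADL2-AS3 hold 0, GPC5-AS1 holds 1, LINC00641 holds 2 and LINC00623 holds 4, against a median of 19 over the 124 members with a window and 14 over 27305 RefSeq windows of the same length. Their GC content was 34.3%, 31.0%, 38.3%, 39.0% and 47.3% in the same order, against medians of 61.0% and 58.3%. The E2F-type motifs TTTCGCGC, TTTGGCGC and TTTCCCGC, searched on both strands, were not found in these 5 windows. At least 1 of the 3 was present in 2.79% of all windows and in 2 of the 124 windows of members (1.61%), those of PCNA-AS1 and ELOVL2-AS1. PCNA-AS1, antisense to the replication clamp gene PCNA, differed by 0.41 (adjusted p = 0.177) and ELOVL2-AS1 by -0.16 (adjusted p = 0.651), so neither passed.

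FAM13A-AS1, antisense to FAM13A on chromosome 4, had the largest difference with all arrays used. Its log2 intensities were 6.76, 6.79 and 7.03 in shRB cells and 5.21 and 6.10 in shControl cells. All shRB arrays lay above both shControl arrays, although the shControl arrays differed widely from each other. The difference was 1.20 (SE 0.23, 95% interval 0.70 to 1.70, adjusted p = 0.0340). Without shControl replicate 1, the lower of that pair, it was 0.76, below GPC5-AS1 at 1.02, and without shControl replicate 2 it was 1.64. FAM13A itself is not analysed here. A measured neighbour on one side is NAP1L5, an imprinted gene within an intron of HERC3, which is also measured. NAP1L5 also rose, with means of 5.88 in shRB and 4.78 in shControl cells (difference 1.09, adjusted p = 0.00898). The measured neighbour on the other side, TIGD2, had means of 6.32 in shRB and 6.29 in shControl cells (adjusted p = 0.934). HERC3, a ubiquitin ligase gene chosen after its values were seen, had log2 intensities of 9.51, 9.35 and 9.27 in shRB cells and 8.74 and 8.53 in shControl cells. It rose by 0.74 (adjusted p = 0.0491).

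GPC5-AS1 is antisense to GPC5, which encodes a glypican, a cell-surface heparan sulphate proteoglycan. It had 6.62, 6.61 and 7.03 in shRB cells and 5.52 and 5.73 in shControl cells. The groups were separated by more than the range within either, and the difference was 1.13 (SE 0.17, 95% interval 0.75 to 1.51, adjusted p = 0.0134), the smallest adjusted p of the members. GPC5 lay near the floor, at 4.66, 4.37 and 4.56 in shRB cells and 4.32 and 4.43 in shControl cells, and its arrays overlapped (difference 0.15, adjusted p = 0.637). GPC6, the measured neighbour on the other side and a second glypican gene, differed by 0.22 (adjusted p = 0.596).

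NAALADL2-AS3 lies antisense within NAALADL2, a gene related to the prostate-specific membrane antigen FOLH1. It had 6.10, 6.19 and 6.31 in shRB cells and 5.06 and 5.43 in shControl cells, with no overlap. It rose by 0.95 (95% interval 0.60 to 1.31, adjusted p = 0.0226). NAALADL2 also had higher values on every shRB array, at 8.42, 8.35 and 8.46 against 7.76 and 7.90 in shControl cells, a difference of 0.58 that did not pass (adjusted p = 0.0886). The probe set of MIR4789, a microRNA gene next to NAALADL2-AS3, passed with means of 6.67 in shRB and 5.88 in shControl cells (difference 0.79, adjusted p = 0.0484).

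GAS5-AS1 is antisense to GAS5, a host gene of small nucleolar RNAs whose transcript accumulates on growth arrest. It had 6.20, 6.14 and 6.14 in shRB cells and 5.09 and 5.36 in shControl cells. The shRB arrays lay close together and above both shControl arrays, a rise of 0.93 (95% interval 0.60 to 1.26, adjusted p = 0.0176). GAS5 itself was bright and nearly level, at 9.93, 9.93 and 9.88 in shRB cells and 9.80 and 9.90 in shControl cells (difference 0.06, adjusted p = 0.857). CENPL, a centromere protein gene on its other side, differed by 0.20 (adjusted p = 0.659).

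Of the intergenic genes, LINC00623 on chromosome 1 had 7.04, 6.84 and 7.01 in shRB cells and 6.11 and 6.15 in shControl cells. It rose by 0.83 (95% interval 0.51 to 1.16, adjusted p = 0.0262), with no overlap. Its measured neighbours are the pseudogenes PFN1P2 (difference 0.56, adjusted p = 0.102) and EMBP1 (0.05, adjusted p = 0.936), and whether its probes also detect related copies was not tested. LINC00641 on chromosome 14 had 6.06, 6.04 and 6.17 in shRB cells and 5.36 and 5.27 in shControl cells. It rose by 0.77 (95% interval 0.46 to 1.09, adjusted p = 0.0336), again with no overlap. Its second probe set differed by 0.56 and did not pass (adjusted p = 0.233). Its neighbours TMEM253 (0.03) and HNRNPC, a nuclear RNA-binding protein gene (0.08), did not pass either.

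**Figure D1:**
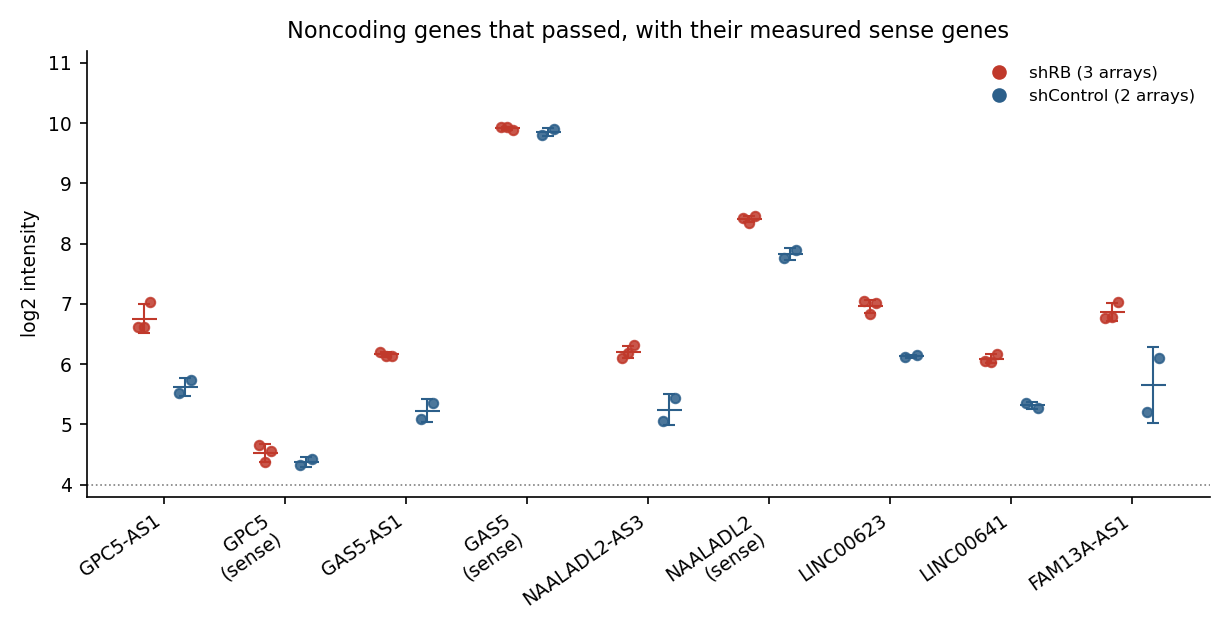
Log2 intensity of each array (points) for the 6 noncoding genes that passed and for their sense genes where measured, shRB (3 arrays) left of shControl (2 arrays). Horizontal bars are group means, vertical bars 1 SD, and the dotted line is the floor at a log2 of 4. In all 6 noncoding genes every shRB point lies above both shControl points, whereas GPC5 (difference 0.15) and GAS5 (0.06) do not separate.

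These calls rest on few arrays and on the level at which the members were cut. Without any 1 of the 3 shRB arrays none of the 6 passed. The calls over all genes fell as well, from 159 to between 22 and 28, so this loss was not particular to the members. Leaving out a shControl array leaves 1 array in that group, so only differences are given. Those of the 6 were 0.76 to 1.02 without shControl replicate 1 and 0.73 to 1.64 without shControl replicate 2. Of the 6, NAALADL2-AS3, GAS5-AS1 and LINC00641 had a shControl mean at or below 5.5 and so met the level through their shRB values. The other 3 are among 134 members with both group means above 5.5.

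Across all 157 members the arrays of the groups did not overlap for 57 that were higher (36.3%) and 30 that were lower (19.1%) in shRB cells, and overlapped for 70. Over all genes these shares were 20.6% and 15.4%, and over genes above 5.5 they were 24.9% and 19.2%. The median log2 difference of the members was 0.12, against 0.03 for all genes above 5.5 and 0.02 for all genes. The differences spread from -0.72 to 1.20, with 88 members above 0 (56.1%, against 53.8% of all genes and 53.6% of genes above 5.5). At an unadjusted p under 0.05, which 18.1% of all genes and 23.1% of genes above 5.5 reached, were 38 members with a positive and 14 with a negative difference (33.1%). Without shControl replicate 2 the median was 0.06, against 0.01 for genes above 5.5. The level favoured members raised in 1 group: 17 had a shControl mean at or below 5.5, and 14 of these were among the 57. Another 6 had a shRB mean at or below 5.5, and 4 of these were among the 30. Among the 134 members with both group means above 5.5 the arrays did not overlap for 43 that were higher (32.1%) and 26 that were lower (19.4%), and the median was 0.07. LINC genes (median 0.11, 2 of 37 passed) and the antisense, intronic and overlapping genes together (0.13, 4 of 120 passed) had similar medians. The 95 other long noncoding RNA genes above 5.5 had a median of 0.04, and 1 of them passed.

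**Figure D2:**
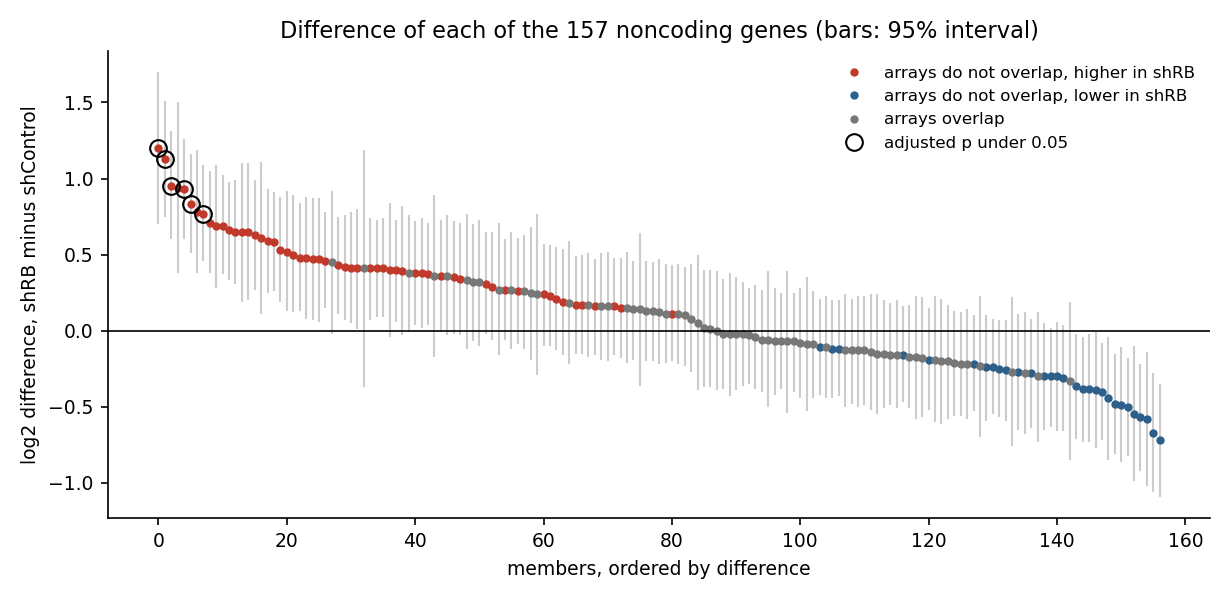
Log2 difference, shRB minus shControl, of each of the 157 noncoding genes in order of the difference, with 95% intervals as bars. Colours mark whether the arrays of the groups overlap (57 higher, 30 lower, 70 overlapping), and rings mark the 6 genes that passed, all at the upper end.

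A further group of members had large positive differences that missed the threshold, all with every shRB array above both shControl arrays. KANSL1-AS1 and MIA2-AS1 had shControl means of 5.37 and 5.27 and so met the level through their shRB values. KANSL1-AS1, antisense to a scaffold gene of a histone acetyltransferase complex, had 6.17, 6.13 and 6.64 in shRB cells and 5.85 and 4.90 in shControl cells (difference 0.94, adjusted p = 0.101). Its shControl arrays differed from each other by about as much as the group means did, and its difference was 1.42 without shControl replicate 1 and 0.46 without shControl replicate 2. HIF1A-AS2, antisense to the end of the hypoxia factor gene HIF1A, had 7.62, 7.41 and 7.79 in shRB cells and 7.07 and 6.58 in shControl cells (difference 0.78, adjusted p = 0.0714). SVIL-AS1, antisense to the gene of the actin-binding protein supervillin, had 6.43, 6.42 and 6.27 in shRB cells and 5.55 and 5.76 in shControl cells. Its difference of 0.71 had an adjusted p of 0.0507, just outside the threshold. PEG3-AS1, antisense to the imprinted gene PEG3, was the brightest member, at 11.18, 11.19 and 10.99 in shRB cells and 10.41 and 10.45 in shControl cells. Its groups were clearly apart relative to their spread, with a difference of 0.69 and an adjusted p of 0.0541. GLYATL1-AS1 had 6.65, 6.62 and 6.48 in shRB cells and 6.20 and 5.60 in shControl cells (0.69, adjusted p = 0.0999). Its difference was 0.38 without shControl replicate 2. MIA2-AS1 (0.66, adjusted p = 0.0660) completes the 12 largest increases together with these and the 6 that passed. All genes of this further group passed with genes at or below 5.5 left out before the fit, where 402 of 6424 genes passed. All but MIA2-AS1 passed with an intensity trend and robust variances (426 of 14812 genes). SVIL-AS1 and PEG3-AS1 passed with array medians subtracted (215 of 14812). None of the group passed in the other settings that kept all arrays or without any 1 shRB array. Without shControl replicate 1 the differences of HIF1A-AS2, SVIL-AS1, PEG3-AS1, GLYATL1-AS1 and MIA2-AS1 were 1.03, 0.61, 0.67, 0.99 and 0.77. Without shControl replicate 2 those of HIF1A-AS2, SVIL-AS1, PEG3-AS1 and MIA2-AS1 were 0.54, 0.82, 0.71 and 0.54.

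Among the 12 largest decreases none passed, so they are given as values only. STXBP5-AS1, LINC01298 and VAC14-AS1 had shRB means of 5.39, 5.5 and 5.28 and so met the level through their shControl values. LINC00221 on chromosome 14 had 6.94, 6.86 and 6.53 in shRB cells and 7.41 and 7.59 in shControl cells (difference -0.72, adjusted p = 0.0697). All shRB arrays lay below both shControl arrays. STXBP5-AS1, antisense to the gene of tomosyn, a regulator of vesicle fusion, had 5.5, 5.47 and 5.19 in shRB cells and 5.83 and 6.28 in shControl cells (difference -0.67, adjusted p = 0.0963). CIRBP-AS1, antisense to a cold-inducible RNA-binding protein gene (-0.58), LINC01298 (-0.57) and VAC14-AS1 (-0.55), antisense to a gene of phosphoinositide synthesis, followed. The remaining decreases were PCGF3-AS1 (-0.50), antisense to a polycomb ring finger gene, LIN28B-AS1 (-0.49), antisense to an inhibitor of let-7 maturation, DNAH8-AS1 (-0.48), LINC00939 (-0.44), ZNF667-AS1 (-0.40), USP30-AS1 (-0.39) and PXN-AS1 (-0.38), antisense to the gene of the focal adhesion protein paxillin. The adjusted p-values of these 10 were between 0.107 and 0.265. Single shControl arrays moved LINC00939, at -0.72 without replicate 1 and -0.17 without replicate 2. They also moved VAC14-AS1, at -0.27 and -0.83, and STXBP5-AS1, at -0.90 and -0.45, in the same order.

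None of the 10 brightest members passed and 3 had an unadjusted p under 0.05, against 1.59% and 23.1% of genes above 5.5, although their spread was small, with a median SD over the shRB arrays of 0.11 against 0.15 over all members. Besides PEG3-AS1 and ZNF667-AS1 these were LINC00987, MIF-AS1, TNS2-AS1, ST8SIA6-AS1, LINC01623, PITPNA-AS1, ATP6V0E2-AS1 and LINC01278, with mean log2 intensities of 8.12 to 9.59. The largest difference of these 8 was that of LINC01278, with 8.13, 8.10 and 8.62 in shRB cells and 7.83 and 7.92 in shControl cells (0.41, adjusted p = 0.266). LINC00987 had the lowest, -0.27, with 9.70, 9.56 and 9.18 in shRB cells and 9.74 and 9.77 in shControl cells (adjusted p = 0.446). In both genes the arrays did not overlap, but the difference was smaller than the range of the shRB arrays.

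Of the 57 noncoding RNAs listed for a known role, 33 were measured and 5 were members, and none of the 33 passed (7 at an unadjusted p under 0.05, which 18.1% of all genes reached, median difference 0.08). The members were HIF1A-AS2, LINC00467, LINC00665, FGD5-AS1 and MNX1-AS1. LINC00467 had 6.84, 6.90 and 7.07 in shRB cells and 6.18 and 6.40 in shControl cells (difference 0.65, adjusted p = 0.0736). LINC00665 had 7.17 on all 3 shRB arrays and 6.88 and 6.63 in shControl cells (difference 0.41, adjusted p = 0.179). FGD5-AS1 (0.31, adjusted p = 0.310) and MNX1-AS1 (0.38, adjusted p = 0.253) likewise had no overlap between groups and did not pass. PSMD6-AS2, on the same list but below the level, had 5.17, 5.27 and 5.67 in shRB cells and 4.53 and 4.59 in shControl cells (difference 0.81, adjusted p = 0.0541).

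The other lists of noncoding RNAs held no gene that passed limma's test, and the counts at an unadjusted p under 0.05 are again to be read against 18.1% of all genes. Among other long noncoding RNAs, 32 of 49 listed were measured (5 at an unadjusted p under 0.05, median difference 0.06), and CRNDE had 7.43, 7.20 and 7.50 in shRB cells and 6.86 and 7.07 in shControl cells (0.41, adjusted p = 0.209). Of 23 listed prostate noncoding RNAs 8 were measured, 4 with a positive and 4 with a negative difference (median -0.03). The 1 at an unadjusted p under 0.05 was PCAT4, near the floor at a mean of 4.27 (difference 0.39, adjusted p = 0.192). PCGEM1, an androgen-regulated prostate transcript, differed by -0.29 (adjusted p = 0.394). Of 24 RNAs listed as responsive to DNA damage 5 were measured (2 at an unadjusted p under 0.05, median -0.27). NORAD, which binds PUMILIO proteins, had 9.47, 9.39 and 9.01 in shRB cells and 9.66 and 9.68 in shControl cells (-0.38, adjusted p = 0.272). PURPL, a p53-regulated transcript, had 8.31, 8.54 and 8.22 in shRB cells and 8.74 and 8.73 in shControl cells (-0.38, adjusted p = 0.227). Both had every shRB array below the shControl arrays. Of 30 listed polycomb genes and effectors of noncoding RNA 17 were measured (1 at an unadjusted p under 0.05, median -0.01), with the lowest adjusted p in DGCR8, a microprocessor subunit of microRNA maturation (-0.54, adjusted p = 0.103).

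The sense gene was measured for 82 members, as 81 distinct genes, and 3 of these passed, all higher (0.695% of all genes passed as higher). STARD4, which encodes a cholesterol transfer protein, had 6.02, 6.27 and 6.03 in shRB cells and 4.93 and 5.09 in shControl cells, and rose by 1.10 (adjusted p = 0.00862). Its antisense gene STARD4-AS1 had 5.61, 5.66 and 5.87 in shRB cells and 5.40 and 5.60 in shControl cells, barely separated (difference 0.21, adjusted p = 0.502). MYLK, the myosin light chain kinase gene, had 6.45, 6.13 and 6.36 in shRB cells and 5.31 and 5.44 in shControl cells, and rose by 0.94 (adjusted p = 0.0205). MYLK-AS1 overlapped between groups (0.25, adjusted p = 0.546). TAPT1, a membrane protein gene linked to primary cilium formation, had 5.56, 5.43 and 5.43 in shRB cells and 4.74 and 4.80 in shControl cells, and rose by 0.70 (adjusted p = 0.0467). TAPT1-AS1 overlapped between groups (-0.13, adjusted p = 0.718). Without any 1 of the shRB arrays none of the 3 sense genes passed. With 1 array of either group left out the difference of TAPT1 was between 0.66 and 0.73. No pair had both partners past the threshold, neither among the noncoding genes that passed nor among the sense genes that passed.

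The share of pairs with differences of the same sign was close to that among neighbouring genes. In 43 of 82 pairs (52.4%) both differences had the same sign, 27 both positive and 16 both negative, against 53.5% of all 316 measured pairs at any level and 52.1% of 6398 pairs of adjacent measured genes above 5.5. No test of these shares was made. The gene bodies of 75 pairs overlap, and whether the labelled cDNA and probes keep the strand is not given in the sources used here, so signal of overlapping partners may not be fully separate.

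**Figure D3:**
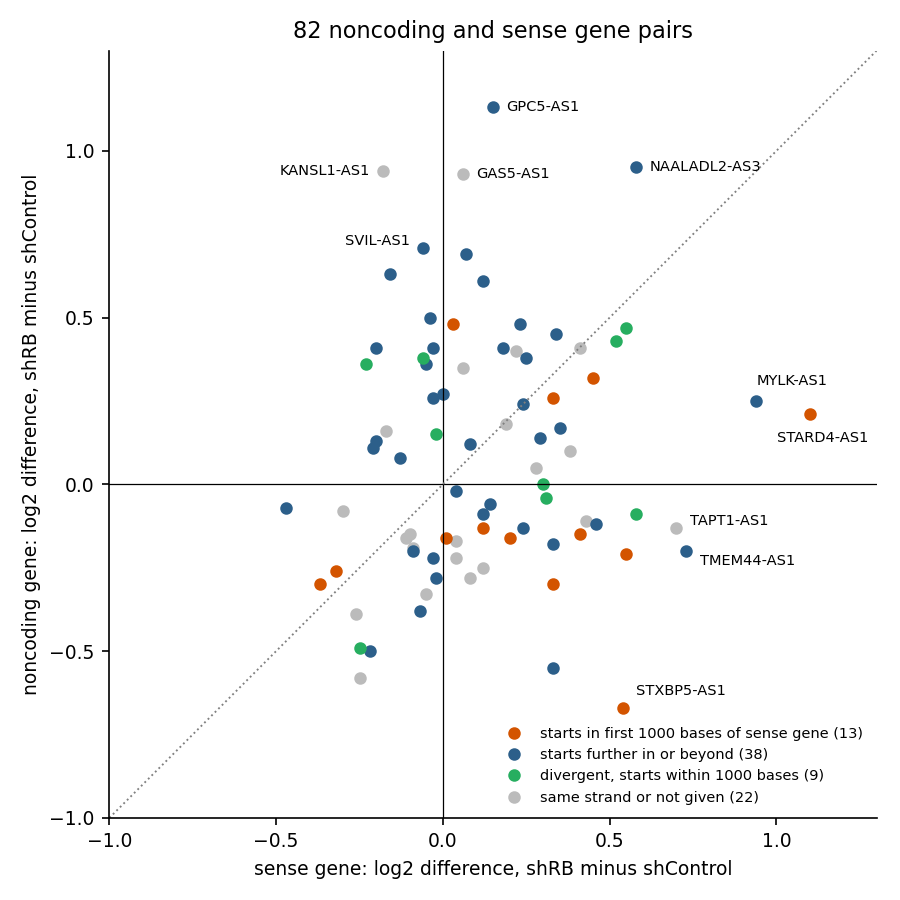
Log2 difference, shRB minus shControl, of the noncoding gene (vertical axis) against that of its sense gene (horizontal axis) for 82 pairs, coloured by where the noncoding gene starts in the RefSeq annotation. The dotted line marks equal change. GPC5-AS1, GAS5-AS1 and KANSL1-AS1 lie high above sense genes near 0, and STARD4, MYLK and TAPT1 lie far right beside noncoding genes near 0.

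Whether the noncoding gene changed unequally with its partner was tested on the within-array log2 ratio, noncoding over sense, with limma over all 316 pairs. Since differences of dim genes are understated, this ratio can change even where partners at unlike levels changed by the same fold. The sense gene lay above 5.5 in 58 of the 82 member pairs. None of the 82 member pairs passed, and 19 had an unadjusted p under 0.05. Over all 316 pairs 2 passed (0.633%) and 52 had an unadjusted p under 0.05 (16.5%). Among the member pairs the lowest value was that of STXBP5-AS1 and STXBP5, whose ratio changed by -1.22 (SE 0.27, 95% interval -1.81 to -0.63, adjusted p = 0.0679). STXBP5 had 5.96, 6.03 and 6.36 in shRB cells and 5.52 and 5.63 in shControl cells. This gene was thus higher and its antisense gene lower on every shRB array. STXBP5-AS1 and VAC14-AS1, with shRB means of 5.39 and 5.28, met the level of the members through their shControl values. STARD4-AS1 and STARD4 followed the same sign of ratio change with -0.88 (adjusted p = 0.0935), as did TMEM44-AS1 (-0.94, adjusted p = 0.157), VAC14-AS1 (-0.88, adjusted p = 0.209), TAPT1-AS1 (-0.84, adjusted p = 0.100) and PAN3-AS1 (-0.76, adjusted p = 0.209). In the other direction KANSL1-AS1 had a ratio change of 1.11 (95% interval 0.52 to 1.71), GPC5-AS1 of 0.97 (0.46 to 1.48) and GAS5-AS1 of 0.87 (0.40 to 1.34), all 3 at an adjusted p of 0.0803. PRRT3-AS1 (0.80), SVIL-AS1 (0.77) and GLYATL1-AS1 (0.61) were next. For NAALADL2-AS3 the ratio changed by 0.38 (95% interval -0.10 to 0.85, adjusted p = 0.427).

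The outcome for member pairs depended on the setting. With genes at or below 5.5 left out before the fit, 58 pairs remained and 4 passed, those of GAS5-AS1, KANSL1-AS1, STARD4-AS1 and STXBP5-AS1. With all 316 pairs tested, that of STXBP5-AS1 passed with probe sets averaged and that of GAS5-AS1 with an intensity trend and robust variances. Without shControl replicate 2 the ratio of TMEM44-AS1 to TMEM44 changed by -1.44. The 2 pairs that passed over all 316 are not members, since their noncoding genes lay below the level. CLIP1-AS1, antisense to a microtubule plus-end protein gene, had 5.09, 4.90 and 4.86 in shRB cells and 6.01 and 6.04 in shControl cells (difference -1.08, adjusted p = 0.00783). CLIP1 differed by 0.21, and the ratio by -1.28 (adjusted p = 0.0199). For DDC-AS1 and DDC, the gene of aromatic amino acid decarboxylase, the ratio changed by -1.30 (adjusted p = 0.0199). There DDC rose, with 8.67, 8.67 and 8.63 in shRB cells and 7.57 and 7.47 in shControl cells, and DDC-AS1 overlapped (difference -0.16).

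**Figure D4:**
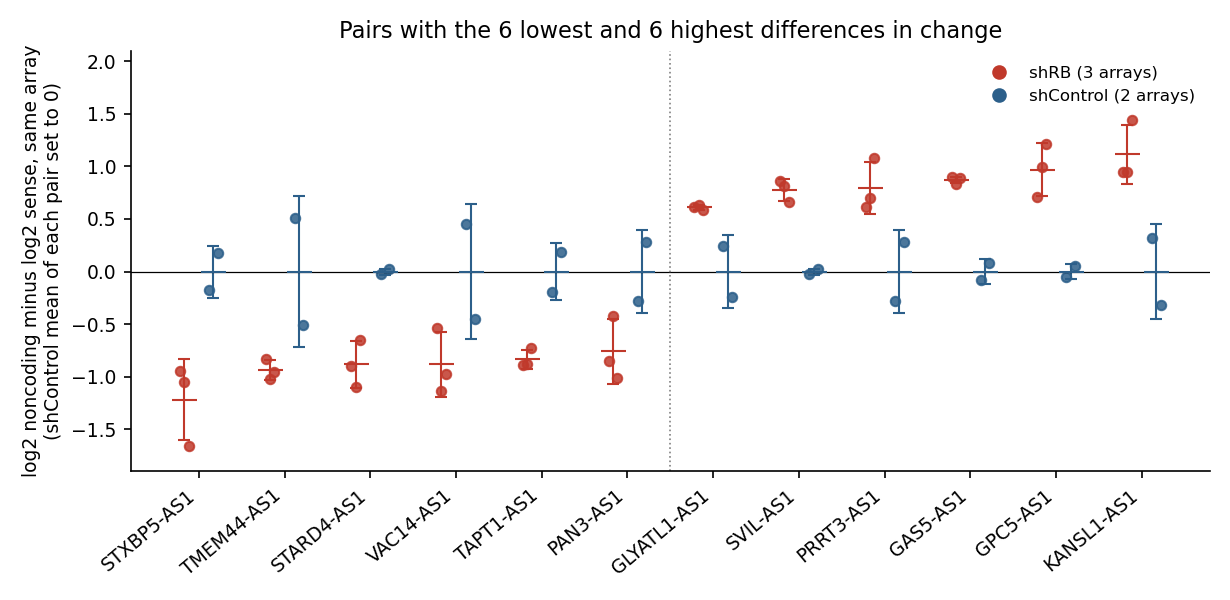
Within-array log2 ratio, noncoding over sense, of the 6 pairs with the lowest and the 6 with the highest change in ratio (left and right of the dotted line), each pair shifted so that its shControl mean is 0, shRB (3 arrays) left of shControl (2 arrays). Points are arrays, horizontal bars means and vertical bars 1 SD. The shControl arrays of TMEM44-AS1 and VAC14-AS1 spread widely, and those of STARD4-AS1, SVIL-AS1 and GPC5-AS1 lie close together.

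Pairs were also grouped by where the noncoding gene starts, a grouping made after results were known and not tested. In 13 pairs the antisense gene starts within the first 1000 bases of the sense gene, among them those of STXBP5-AS1, STARD4-AS1 and PAN3-AS1. In 7 of these 13 the noncoding difference was negative and the sense difference positive, and in 0 was it the reverse. Their median noncoding difference was -0.16, their median sense difference 0.33 and their median ratio change -0.26. In 38 pairs the antisense gene starts further inside or beyond the sense gene, among them those of GPC5-AS1, NAALADL2-AS3 and SVIL-AS1. There the 2 opposed combinations were found in 8 and 11 pairs, and the median ratio change was 0.12. In the 9 divergent pairs with starts within 1000 bases the median ratio change was -0.09. Start or strand was not given for 21 further pairs, and 1 pair lay on the same strand. Of these 21, 6 had a negative noncoding and a positive sense difference and 1 had the reverse (median ratio change -0.13). Over all 82 pairs the same counts were 23 and 16.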

How the data were processed

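LNCaP RNA was measured on 5 arrays, 3 shRB and 2 shControl, grouped by the sample labels. Values are linear intensities per probe set as deposited by the authors. How they were summarised, corrected for background and normalized, and on which build, is not given in the sources used here. All deposited intensities exceed 16, as if that constant had been added.

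Of 44607 probe sets, 15835 carried 1 gene symbol in the platform annotation, 0 carried several and 28772 were unnamed. Symbols were updated through Entrez IDs to RefSeq, where all 15835 matched. For the 651 genes with several probe sets the one with the highest mean log2 intensity was used. Intensities were log2-transformed without further normalization or a filter on dim genes and tested in R 4.3.3 with limma 3.58.1 (lmFit, eBayes, two-sided, Benjamini-Hochberg over 14812 genes, threshold 0.05). Pairs were tested in the same way on within-array log2 ratios. The fit was tested on simulated data. The number of arrays limits the precision.

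Alternatives were quantile normalization, array medians subtracted, the constant taken off with 4 added before the logarithm, dim genes left out, probe sets averaged, array weights, robust variances with an intensity trend, a block for the replicate number, levels of 5 and 6, the symbols of the platform annotation and each array left out.

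The members, gene lists and rules were chosen with earlier results of these data known. Named are the members that passed, the 12 largest increases and 12 largest decreases without overlap between groups, the 10 brightest, those with a listed role, the sense partners of these, the sense genes and pairs that passed, the 3 genes on either side of the level, RB1 and up to 5 genes of each other list. Neighbouring genes, HERC3, ELOVL2-AS1, PCNA-AS1 and further pairs at the ends of the ratio order were named after their values were seen.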

Additional observations from a re-analysis of the deposited data

Results flagged for a closer look

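LINC01061 on chromosome 4 gave a signal in a probe set that the comparison did not use. Its 7 probe sets all had positive differences. The one with the highest mean, used above, had means of 6.72 in shRB and 6.32 in shControl cells (log2 difference 0.40, adjusted p = 0.318). Probe set 16970173 had means of 6.07 in shRB and 5.16 in shControl cells, a difference of 0.91 that passed limma's test over all named probe sets (adjusted p = 0.0413). The other 5 differed by 0.29 to 0.57. Whether these probe sets measure near-identical copies was not tested. It was the only one of 34 unused probe sets of 17 members to pass, and 31 of the 34 had the sign of the probe set used. The 3 of opposite sign belonged to GAS6-AS1, HLA-F-AS1 and STX18-AS1.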

How the results depend on the processing

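The count of members that passed (6 of 157) fell to 0 with the constant of 16 taken off and to 0 with the replicate number as a block. It was 19 with dim genes left out (16 higher, 3 lower) and 15 with an intensity trend and robust variances (14 higher, 1 lower). At a level of 5 it was 11 of 309 members (8 higher, 3 lower), and at a level of 6 it was 3 of 96. Without any 1 shRB array it was 0. It was 4 under quantile normalization, 9 with array medians subtracted, 5 with probe sets averaged and 4 with array weights. The causes of these changes were not tested. Over all 14812 genes the 159 calls became 13 with the constant taken off and 426 with the trend. They became 88 with array weights, 24 with the block and 22 to 28 with 1 shRB array left out. With dim genes left out, 402 of the 6424 genes tested passed. The 3 sense genes that passed became 6 with the trend. They became 0 with the constant taken off, with the block and without any 1 shRB array. The 2 pairs that passed became 4 with dim genes left out and 4 with probe sets averaged. They became 0 with the constant taken off, with the block and without any 1 shRB array. The median difference of the members stayed between 0.09 and 0.13 over the settings that kept all arrays, and between 0.06 and 0.13 with 1 array left out. The difference of each of the 6 members stayed positive in 13 alternatives. Among the settings that kept all arrays, none of the 6 passed with the constant taken off or with the block. GPC5-AS1, GAS5-AS1 and NAALADL2-AS3 passed in all the others. LINC00623 also failed with array weights and FAM13A-AS1 under quantile normalization. LINC00641 also failed with array weights, under quantile normalization and with probe sets averaged. With 1 array of either group left out FAM13A-AS1 was between 0.76 and 1.64 and LINC00641 between 0.73 and 0.82. The labels do not say whether same-numbered arrays were handled together. Their deviations from the group means correlated at -0.021 and 0.046. With 2 shControl arrays these values are not independent, so they do not settle whether such arrays were paired.

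The sign turned in 15 of 1288 values of single genes, in 11 genes with small differences. With 1 array left out SVIL was between -0.14 and 0.02, PXN between -0.24 and 0.11 (0.00 without shRB replicate 2), MNX1 between -0.25 and 0.12, MYLK-AS1 between -0.07 and 0.56, TAPT1-AS1 between -0.35 and 0.09 and LINC00475 between -0.28 and 0.03. KRT8 was between -0.06 and 0.52, KRT5 between -0.01 and 0.39, KRT14 between -0.11 and 0.21, LUM between -0.07 and 0.23 and LINC-PINT between -0.02 and 0.11. LINC-PINT was at -0.02 with the replicate block.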

Other observations

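Members on 2 chromosomes lay at the ends of the order of chromosomes by median difference, which was noticed after values were seen and not tested, and most chromosomes hold 10 members or fewer. Of the 10 members on chromosome 14, 7 were higher without overlap between groups and 1 was lower, against 24% and 11.8% of genes above 5.5 on that chromosome. Their median was 0.45, against 0.04 for those genes. The 7 include LINC00641, HIF1A-AS2 and MIA2-AS1, while LINC00221 there had the lowest difference of all members. Of the 10 members on chromosome 12, 0 were higher and 6 were lower without overlap, against 22.1% and 18.4% of genes above 5.5 there. The 6 include PXN-AS1, USP30-AS1, LINC00939 and LINC00987. The median was -0.20, against 0.02 for those genes.

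The members were also split by the CpG count of their RefSeq start windows. The limit of 4 is the highest count among the windows of the 5 genes printed above, so it was set from genes that had passed, and where those genes fall is fixed by it. Of the 124 members with a window, 24 had at most 4 CpG (19.4%, against 30.5% of all windows). Their median difference was 0.40, with 16 higher and 3 lower without overlap, and the 5 genes that set the limit are among the 16. The median and the count of 16 are thus partly fixed by the limit, and values without the 5 genes are not given. The 100 members with more CpG had a median of 0.10, with 28 higher and 20 lower, near the 24.9% and 19.2% of all genes above 5.5. The median levels of both sets were 6.35 and 6.26. Among other genes above 5.5 the median differences were 0.00 for 213 genes with at most 4 CpG and 0.02 for 4941 with more. Of the 213 genes 10 passed limma's test, and of the 4941 genes 57 did, against 1.59% of all genes above 5.5. Genes with at most 4 CpG thus passed more often than those with more outside the members too. No test of the split was made.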
